A study of Homo sapiens with 33 samples.

Results

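Immune checkpoint ligands and enzymes are the products through which tumour cells hold back T cells, natural killer cells and macrophages. The set held 8 genes, CD274, PDCD1LG2, CD276, CD47, NT5E, PVR, IDO1 and LGALS9, which were taken by symbol from the gene tables and were all found among the 29744 genes listed. RNA was sequenced from 33 libraries of 11 established lines of high-grade serous ovarian carcinoma, at 3 replicate libraries per line. OVCAR3, OVCAR4, PEA1 and PEO1 were the 4 platinum-sensitive lines. OVCAR3 ResA, OVCAR3 ResB, OVCAR4 ResA and OVCAR4 ResB were resistant lines that the study selected from OVCAR3 and OVCAR4 by repeated short cisplatin pulses at rising dose, each in an independent selection. PEA2 shared its origin with PEA1, and PEO4 and PEO6 shared theirs with PEO1, so that 7 resistant lines were paired with 4 sensitive ones. The selected lines were not kept in cisplatin medium, and the media of the OVCAR3 and OVCAR4 families held insulin while those of the PEA and PEO families did not. The labels gave the line and the replicate number, and the roles of sensitive and resistant came from the study's text. No source used here says whether the replicates of a line were separate cultures, so p-values measure the spread between these libraries, which may be technical, and a difference between 2 lines is a difference between those lines.

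The 8 products act at different points. CD274 (PD-L1) and PDCD1LG2 (PD-L2) are the ligands of the T cell receptor PD-1, CD276 (B7-H3) is a related surface protein, and PVR (CD155) binds the receptors TIGIT and CD226 on T and natural killer cells. CD47 binds SIRPA on macrophages and restrains phagocytosis, and LGALS9 encodes galectin-9, a sugar-binding protein with TIM-3 among its partners. NT5E (CD73) is the surface enzyme that makes adenosine from AMP, and IDO1 degrades tryptophan to kynurenine, and both products dampen T cells. CD274 and IDO1 are textbook targets of interferon gamma, which acts through the kinases JAK1 and JAK2 and the factor IRF1.

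Library totals ran from 18058985 to 43394009 estimated counts, with a median of 30611448. In 31 of the 33 libraries the most similar library, by correlation of log2 CPM, was of the same line. The exceptions were replicate 1 of OVCAR4 ResA and replicate 1 of OVCAR4 ResB, which were most similar to each other. Mitochondrial rRNA (RNR1 and RNR2) took 1.12% to 14.8% of the counts of a library, and they also moved within OVCAR4: the share was 5.18% in replicate 1 of OVCAR4 and 14.8% and 12% in the others, but 9.23% in replicate 1 of OVCAR4 ResA and 2.02% and 2.09% in the others. The part of that share in the results was not tested. For OVCAR4 ResA and OVCAR4 ResB against OVCAR4, results are given below with and without replicate 1 where the call changes. PAX8, a Mullerian lineage factor, was present in every line, between 30.1 TPM in PEO1 and 203 TPM in OVCAR3. PEA1 stood apart on the other carcinoma markers, with EPCAM at 14.0 TPM and KRT7 at 2.95 TPM against 575 and 1186 TPM in PEA2. Of the 12 carcinoma markers 8 were higher in PEA2, 1 lower and 3 not called, beside 47.0% of all genes called. FOLR1 (6.12 and 6.58 TPM) and WT1 (2.32 and 2.25 TPM) were alike in level. In PEA1 the 12 carcinoma markers summed to 427 to 475 TPM against 3703 to 3944 TPM in PEA2. The 14 leukocyte markers summed to 5.52 to 7.38 TPM in PEA2 and 1.13 to 1.18 TPM in PEA1, and the 6 fibroblast markers to 0.675 to 1.17 TPM and 69.6 to 116 TPM. In OVCAR3 ResA 8 of the 12 carcinoma markers were lower than in OVCAR3 and 3 higher, beside 44.9% of all genes called. The list median was -1.11 beside -0.04 for all genes, and the sums were 2558 to 3197 against 5664 to 7584 TPM. The fibroblast markers summed to 18.8 to 31.3 TPM in OVCAR4 ResA and 4.02 to 5.23 TPM in OVCAR4, with LUM at 17.7 against 1.54 TPM. Of 4 tested 1 was higher and 1 lower, beside 11.9% of all genes called. In PEO1 the fibroblast markers summed to 150 to 202 TPM, in PEO4 to 92.7 to 129 TPM and in PEO6 to 84.7 to 125 TPM. Of the 12 carcinoma markers 6 were higher and 4 lower in PEO6, beside 41.4% of all genes called. The 4 endothelial markers summed to 5.68 to 8.76 TPM in PEA2 and 0.0132 to 0.109 TPM in PEA1. In OVCAR3 ResB they summed to 3.01 to 14.4 TPM, against 0.265 to 0.546 TPM in OVCAR3. Such levels move with every result of PEA2, PEO4, PEO6, OVCAR3 ResA, OVCAR3 ResB and OVCAR4 ResA below. Their part in those results was not tested. The leukocyte genes CD3D, MS4A1 and NKG7 were at 0 in all 11 lines, and at most 2 of the 14 leukocyte markers reached 1 TPM in a line. In PEA2 these were PTPRC at 3.30 TPM and CD14 at 2.89 TPM, against 0 and 0.323 TPM in PEA1. Of 6 leukocyte markers tested in that pair 2 were higher and 1 lower, beside 47.0% of all genes called. CD14 was at 3.02 TPM in PEO1. These were bulk samples, in which fewer cells expressing a gene and less RNA per cell cannot be told apart.

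The RefSeq sequences of the 250 bases before the gene start show how differently these genes begin. Such a window was found for 6 of the 8 genes, and not for PDCD1LG2 and IDO1. Shown are CD274, as the interferon target, CD47, as the gene with the highest level, and LGALS9, as the gene called in most pairs. Each is 5′ to 3′ along the gene on GRCh38.p14, at chr9:5450292-5450541 on the plus strand, chr3:108091032-108091281 on the minus strand and chr17:27630938-27631187 on the plus strand. Capitals mark matches on either strand to the core that interferon regulatory factors bind (GAAA, any 2 bases, then GAAA), to TTCNNNGAA, the STAT element, and to GGGCGG, the GC box.
CD274: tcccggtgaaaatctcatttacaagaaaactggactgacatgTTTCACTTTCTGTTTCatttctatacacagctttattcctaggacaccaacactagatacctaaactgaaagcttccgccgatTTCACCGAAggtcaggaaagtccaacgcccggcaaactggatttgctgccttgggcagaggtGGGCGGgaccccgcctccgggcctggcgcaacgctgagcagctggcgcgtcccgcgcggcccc
CD47: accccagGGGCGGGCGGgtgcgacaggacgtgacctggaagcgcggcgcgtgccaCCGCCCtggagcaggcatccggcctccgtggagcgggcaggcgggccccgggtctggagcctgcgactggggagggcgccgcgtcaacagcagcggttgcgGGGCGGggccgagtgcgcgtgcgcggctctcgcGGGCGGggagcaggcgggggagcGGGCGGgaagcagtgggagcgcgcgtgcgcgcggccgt
LGALS9: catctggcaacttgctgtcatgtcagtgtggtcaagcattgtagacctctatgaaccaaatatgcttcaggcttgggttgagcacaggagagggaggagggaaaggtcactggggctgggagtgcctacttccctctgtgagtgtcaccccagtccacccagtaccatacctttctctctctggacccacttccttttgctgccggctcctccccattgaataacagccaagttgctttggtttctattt
The CD274 window held 2 overlapping matches of the first pattern, a STAT element that ended 116 bases before the start, and 1 GC box. The CD47 window held 6 GC boxes and neither of the other patterns, and the LGALS9 window held none of the 3. Of the 35116 windows of the same length in the RefSeq table, 3.02% held the first pattern, 6.57% the second and 42.6% the third. The NT5E window held 2 GC boxes and the PVR window held none of the 3 patterns. A match describes letters only, and the absence of one says nothing of the factor.

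The genes lay on 7 chromosomes in RefSeq GRCh38.p14. CD274 (5450542 to 5470554) and PDCD1LG2 (5510531 to 5571282) were neighbours on chromosome 9. CD47 lay on chromosome 3 (108043091 to 108091031), NT5E on chromosome 6 (85450083 to 85495784), CD276 on chromosome 15 (73683944 to 73714514), LGALS9 on chromosome 17 (27631188 to 27649560) and PVR on chromosome 19 (44643910 to 44666162). IDO1 lay on chromosome 8.

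Levels across the 11 lines differed between genes by orders of magnitude. On the TPM scale, which allows genes to be compared, the median library held 96.4 TPM of CD47, 34.9 of CD276, 23.4 of NT5E, 21.2 of PVR, 5.98 of LGALS9, 1.15 of CD274, 0.490 of IDO1 and 0.0485 of PDCD1LG2. CD276 was the least variable between lines, with a ratio of 2.75 between the highest and the lowest line mean, followed by PVR with 4.98. NT5E had a ratio of 357 and IDO1 one of 263. When lines were ordered by mean TPM, the libraries of neighbouring lines overlapped at all 10 steps for CD276 and at 9 of 10 for PVR, but at 2 of 10 for CD47. PEA2 held the highest level of CD274, PDCD1LG2, NT5E and IDO1, and for each of them its 3 libraries lay above every library of the next line. For IDO1 the next line was OVCAR4 ResA, whose libraries in turn lay above those of the other 9 lines.

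**Figure D1:**
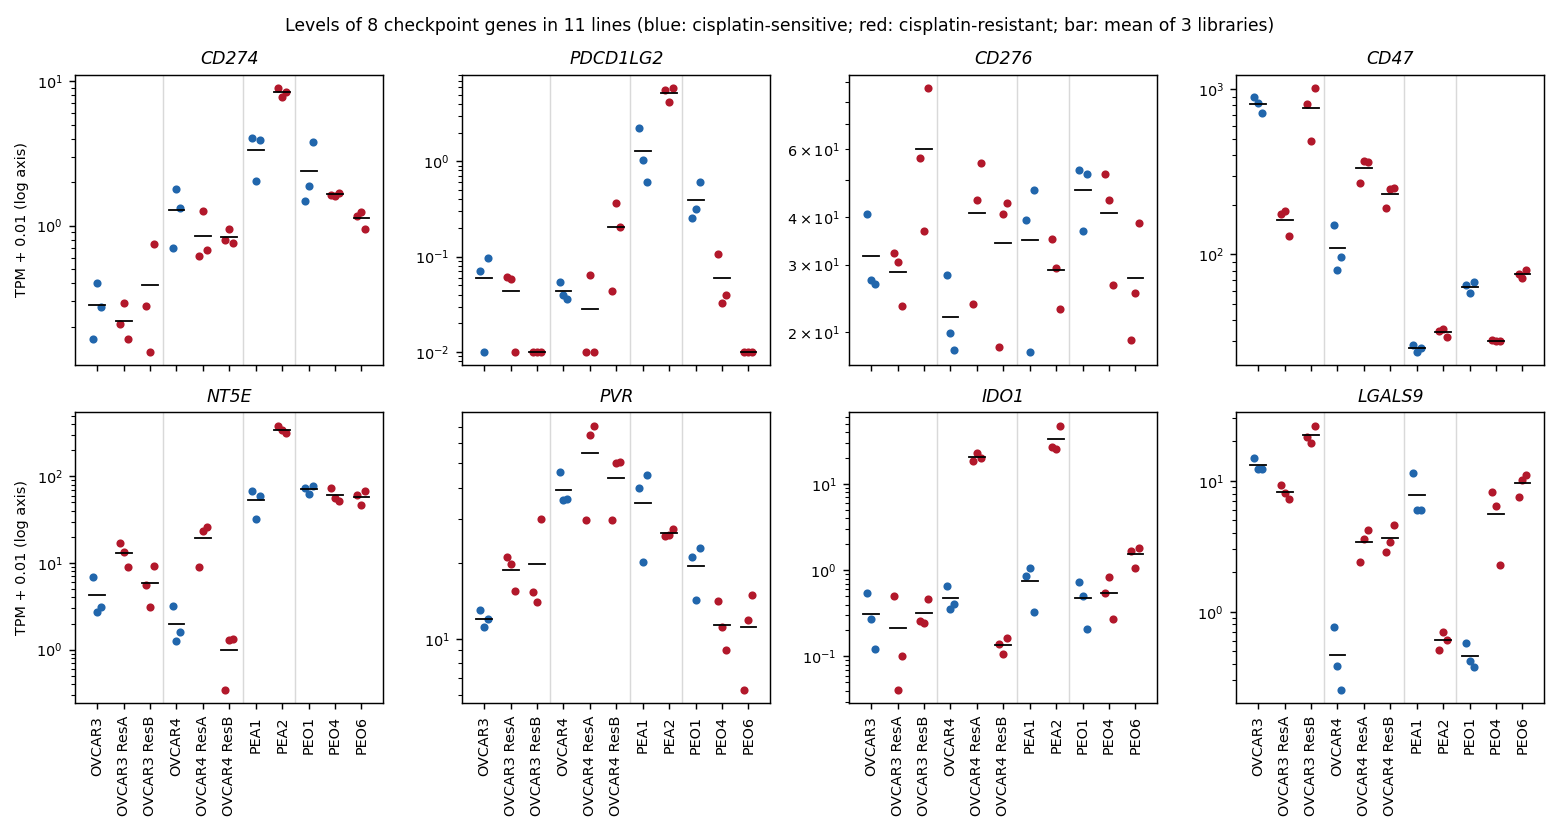
Level of each gene by line, as TPM plus 0.01 on a log axis. Points are the 3 libraries of a line, bars their mean, blue marks sensitive and red resistant lines, and grey lines part the families. IDO1 lay at 18.3 TPM or above in every library of OVCAR4 ResA and PEA2 and at 1.82 TPM or below in every other library.

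A gene was called when the Wald test of DESeq2, fitted to all genes on the 6 libraries of a comparison with the replicate number as a block, gave a Benjamini-Hochberg adjusted p under 0.05. Of 56 combinations of gene and pair, 24 were called, 14 higher and 10 lower in the resistant line, and 2 had no adjusted p. In OVCAR3 ResA against OVCAR3, 4 of the 8 genes were called, beside 44.9% of all genes tested. The count was 0 in OVCAR3 ResB, beside 7.67% of all genes, 4 in OVCAR4 ResA, beside 11.9%, and 2 in OVCAR4 ResB, beside 17.9%. It was 5 in PEA2, beside 47.0%, 4 in PEO4, beside 33.3%, and 5 in PEO6, beside 41.4%. In the PEA, PEO and OVCAR3 ResA pairs, where large shares of all genes passed, the count itself says little, and the results are which genes moved and by how much. For OVCAR3 ResB, the count at an unadjusted p under 0.05 was 1 with DESeq2, for CD276, and edgeR called 0 with 2 under that level. Replicates 2 and 3 of OVCAR3 ResB had the lowest Spearman correlation within any line, 0.9450. Its rRNA shares were 5.97%, 8.88% and 1.12%. The SE of CD47 was 0.31 there and 0.10 in OVCAR3 ResA, so the count of 0 does not show unchanged genes. In OVCAR3 ResB without replicate 3 the count stayed 0, while calls over all genes rose from 1255 to 1934. Without replicate 1, which stands apart, 5 of the 8 genes were called in OVCAR4 ResA and 3 in OVCAR4 ResB, while the calls over all genes rose from 1784 to 6221 and from 2853 to 7241. Without replicate 2 or replicate 3 the counts were 2 and 2 in OVCAR4 ResA, where the calls over all genes fell to 381 and 292. In OVCAR4 ResB the counts were 0 and 0, and the calls over all genes fell to 764 and 631. Between resistant lines of one origin, 4 genes were called in OVCAR3 ResB against OVCAR3 ResA (13.5% of all genes), 4 in OVCAR4 ResB against OVCAR4 ResA (32.8% of all genes) and 1 in PEO6 against PEO4 (18.2%). Pairs of one family share their sensitive libraries and are not independent.

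**Figure D2:**
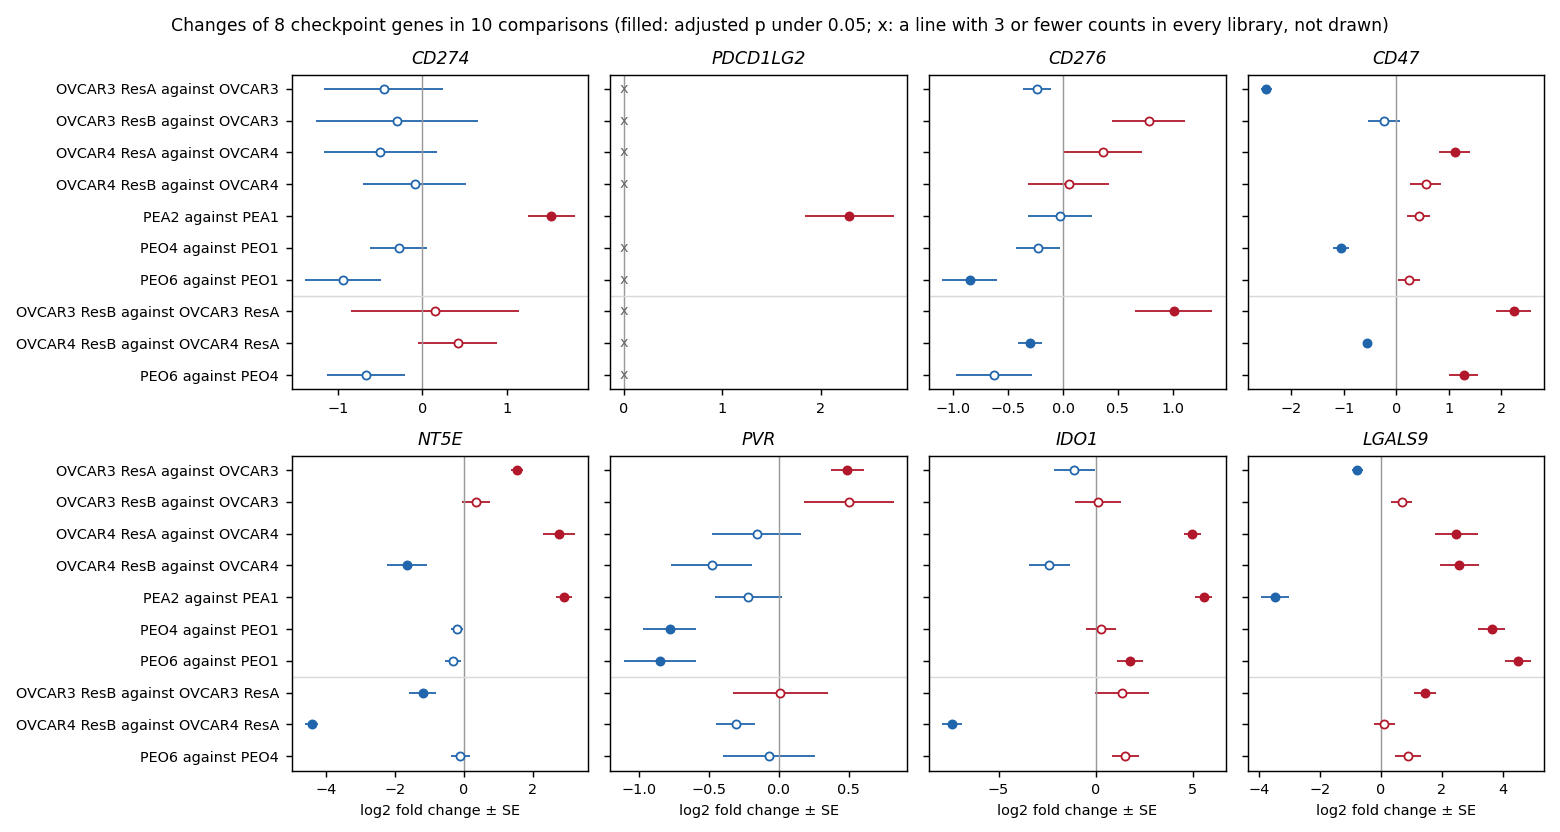
Log2 fold change ± SE of each gene in the 10 comparisons, from DESeq2 on the 6 libraries of each, with the first line named over the second. Filled points passed an adjusted p of 0.05, and an x marks a comparison in which a line had 3 or fewer counts in every library. CD47, NT5E, PVR and LGALS9 have filled points on both sides of 0, and IDO1 has filled points above 0 only among the 7 pairs. CD276 has a filled point above 0 only in OVCAR3 ResB against OVCAR3 ResA.

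The PD-1 ligands rose in 1 pair, PEA2 against PEA1. CD274 stood at 8.98, 7.79 and 8.40 TPM in the PEA2 libraries and at 4.0, 2.02 and 3.88 TPM in those of PEA1, and every PEA2 library was above every PEA1 library. The rise was 2.89-fold, a log2 fold change of 1.53 ± 0.28 (SE, adjusted p = 2.05e-07). PDCD1LG2 rose 4.90-fold, from 2.22, 1.01 and 0.590 TPM in PEA1 to 5.63, 4.19 and 5.88 TPM in PEA2 (log2 fold change 2.29 ± 0.45 SE, adjusted p = 1.59e-06). Here too the libraries of the lines did not overlap, although the PEA1 libraries themselves spread over a range of 19 to 101 counts.

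In the other 6 pairs CD274 was not called. Its level was low throughout the OVCAR3 family, from 0.123 to 0.741 TPM, which came from 6 to 21 counts per library. There the 95% interval of the log2 fold change ran from -1.86 to 0.94 in OVCAR3 ResA and from -2.20 to 1.59 in OVCAR3 ResB. In PEO4 against PEO1 the interval was narrower, from -0.94 to 0.39. The PEO6 difference was less settled, since CD274 stood at 1.15, 1.23 and 0.931 TPM against 1.48, 1.86 and 3.79 TPM, a log2 fold change of -0.94 ± 0.45 (SE, adjusted p = 0.0834). The fits without the replicate block and on all 33 libraries gave that difference an adjusted p of 0.0328 and 0.0149, and edgeR gave 0.0222.

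PDCD1LG2 was near the detection floor outside the PEA family. In PEO1 it had 8, 15 and 23 counts, in PEO4 3, 1 and 1, and in PEO6 0 in all 3 libraries. Set against a floor of 3 counts per library, PEO6 was at least 5.65-fold lower than PEO1 (adjusted p = 0.000737). For PEO4 the ratio of summed counts per library total, PEO1 over PEO4, was 8.53, with a 95% exact interval of 3.40 to 27.5 that covers counting error only. The call in PEO4 (adjusted p = 0.0352) was lost when any 1 replicate was left out, with adjusted p between 0.117 and 0.321. In OVCAR3 ResA, OVCAR3 ResB, OVCAR4 ResA and their parents every library had at most 3 counts, and no fold is given. OVCAR4 ResB had 1, 14 and 8 counts against 2, 1 and 1 in OVCAR4, which was not called (adjusted p = 0.611).

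CD276 and PVR had the smallest ratios between the highest and the lowest line. CD276 ran from 17.7 to 86.9 TPM over all libraries and was called in 1 of 7 pairs. In PEO6 it stood at 19.0, 25.3 and 38.5 TPM against 53.0, 36.7 and 51.6 TPM in PEO1, which is 1.80-fold lower after size-factor scaling (log2 fold change -0.85 ± 0.25 SE, adjusted p = 0.00214). Without replicate 1 that call was lost, with an adjusted p of 0.0901. In OVCAR4 ResA CD276 stood at 23.6, 44.1 and 55.1 TPM against 28.1, 19.8 and 17.9 TPM in OVCAR4, replicate 1 being the lowest of the first and the highest of the second. It was not called there (adjusted p = 0.607), but it was higher without replicate 1 (log2 fold change 0.71, adjusted p = 0.00396). The highest CD276 library was replicate 3 of OVCAR3 ResB at 86.9 TPM, and the other libraries of that line held 57.0 and 36.8 TPM. OVCAR3 ResB lay above OVCAR3 in all 3 libraries after scaling, 1.72-fold, with an adjusted p of 0.162 and a 95% interval of the log2 fold change from 0.13 to 1.43. It was 2.02-fold above OVCAR3 ResA (adjusted p = 0.0301), a call lost in 6 of 11 alternatives. OVCAR4 ResB was 1.23-fold below OVCAR4 ResA with overlapping libraries (adjusted p = 0.0170), a call lost in 8 of 11.

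PVR was highest in the OVCAR4 family, at 29.7 to 70.6 TPM, and lowest in PEO4 and PEO6, at 6.26 to 15.0 TPM. It was lower than in PEO1 in both resistant lines of that family: 1.71-fold in PEO4 (14.1, 11.2 and 9.01 against 21.1, 14.3 and 23.0 TPM, adjusted p = 0.000188) and 1.80-fold in PEO6 (6.26, 11.9 and 15.0 TPM, adjusted p = 0.00438). After size-factor scaling no PEO4 or PEO6 library overlapped PEO1. The PEO4 call held under every alternative tried, and the PEO6 call was lost without replicate 1 (adjusted p = 0.152). In OVCAR3 ResA PVR was 1.40-fold higher than in OVCAR3, at 21.2, 19.8 and 15.5 against 13.0, 11.1 and 12 TPM (adjusted p = 0.000362). That small rise was not called in the fit on all 33 libraries (adjusted p = 0.0766) or without replicate 1 (0.0543). In OVCAR4 ResB PVR stood at 29.7, 50.3 and 50.7 TPM against 46.3, 35.7 and 35.9 TPM in OVCAR4, with a higher mean on the TPM scale but a log2 fold change of -0.48 ± 0.29 (SE) after size-factor scaling. That was not called (adjusted p = 0.277), but it passed without the block (0.0336) and without replicate 1 (-0.39, adjusted p = 0.0275).

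CD47 had the highest mean TPM of the 8 genes in all 6 OVCAR3 and OVCAR4 lines and in PEO6, and NT5E had it in PEA1, PEA2, PEO1 and PEO4. OVCAR3 held 889, 821 and 716 TPM, OVCAR4 150, 80.5 and 96.4 TPM, PEO1 65.1, 58.6 and 68.4 TPM and PEA1 28.3, 25.7 and 27.4 TPM. OVCAR3 ResA held 175, 183 and 129 TPM, 5.55-fold less than OVCAR3 after scaling (log2 fold change -2.47 ± 0.10 SE, adjusted p = 1.73e-144). OVCAR3 ResB, selected from the same parent, held 809, 487 and 1017 TPM and overlapped OVCAR3, with a log2 fold change of -0.23 ± 0.31 (SE) and an adjusted p of 0.839. The direct comparison gave OVCAR3 ResB 4.70-fold above OVCAR3 ResA (adjusted p = 9.91e-10). The OVCAR3 ResA difference kept its call under every alternative, with log2 fold changes between -2.51 and -2.32. In OVCAR3 ResA 8 of the 12 carcinoma markers were also lower and 3 higher, beside 44.9% of all genes called. Their part in the CD47 difference was not tested.

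In the OVCAR4 family CD47 was higher in both resistant lines, at 269, 369 and 360 TPM in OVCAR4 ResA and 192, 249 and 253 TPM in OVCAR4 ResB. OVCAR4 ResA was 2.16-fold above OVCAR4 (log2 fold change 1.11 ± 0.30 SE, adjusted p = 0.00393), and edgeR gave an adjusted p of 0.103. Without replicate 1 the adjusted p was 1.08e-11, and without replicate 2 or 3 it was 0.433 or 0.466. OVCAR4 ResB was 1.47-fold above, which was not called (adjusted p = 0.187), but it passed without the block (0.0296) and without replicate 1 (2.67e-05). On the TPM scale the median of all genes was itself 0.44 log2 units higher in OVCAR4 ResA and 0.47 in OVCAR4 ResB than in OVCAR4, so TPM differences in that family overstate those after scaling. In the PEO family CD47 was tightly measured. PEO4 held 30.5, 29.8 and 30.1 TPM, 2.07-fold less than PEO1 (adjusted p = 2.04e-09), while PEO6 held 76.5, 72.3 and 80.3 TPM and was not called against PEO1 (adjusted p = 0.387). PEO6 was 2.44-fold above PEO4 (adjusted p = 0.000121), a call lost without replicate 2 (0.0763). PEA2, at 34.3, 35.6 and 31.5 TPM, lay above every PEA1 library but did not pass (log2 fold change 0.43 ± 0.22 SE, adjusted p = 0.0910). It passed without the block (0.0202) and on all 33 libraries (0.00272).

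NT5E stood between 32.2 and 76.7 TPM in PEA1 and the PEO lines and between 1.25 and 6.92 TPM in OVCAR3 and OVCAR4. PEA2 exceeded all of these, at 385, 340 and 314 TPM against 67.3, 32.2 and 59.8 TPM in PEA1, a 7.47-fold rise (log2 fold change 2.90 ± 0.23 SE, adjusted p = 4.03e-34). OVCAR3 ResA held 17.0, 13.3 and 8.88 TPM against 6.92, 2.71 and 3.10 TPM in OVCAR3, a 2.89-fold rise without overlap of libraries (adjusted p = 3.3e-16). In the PEO pairs it was not called, with 95% intervals of the log2 fold change of -0.53 to 0.13 in PEO4 and -0.75 to 0.12 in PEO6.

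The OVCAR4 derivatives moved apart for NT5E. OVCAR4 ResA held 8.86, 23.4 and 26.1 TPM, 6.72-fold above OVCAR4 at 3.14, 1.25 and 1.58 TPM (log2 fold change 2.75 ± 0.46 SE, adjusted p = 1.91e-07). Limma on TPM did not call it, with adjusted p of 0.0629 and 0.0698 for the pseudocounts of 1 and 0.1. OVCAR4 ResB held 0.332, 1.27 and 1.31 TPM and was 3.16-fold below OVCAR4 (adjusted p = 0.0266). The fall in OVCAR4 ResB rested on low counts, 17, 86 and 93 per library, and was lost in edgeR (adjusted p = 0.132) and when any replicate was left out (0.105 to 0.213). The direct comparison did not depend on the parent: OVCAR4 ResB was 21.3-fold below OVCAR4 ResA (log2 fold change -4.41 ± 0.19 SE, adjusted p = 1.67e-113). In both derivatives replicate 1 was the lowest library. OVCAR3 ResB lay 2.30-fold below OVCAR3 ResA (adjusted p = 0.0198), and edgeR (0.0585) and the fits without replicate 1 (0.335) or replicate 2 (0.558) did not call it.

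IDO1 was all but silent except in 2 resistant lines. OVCAR4 ResA held 18.3, 23.1 and 20.2 TPM against 0.642, 0.342 and 0.394 TPM in OVCAR4, a 31.7-fold rise (log2 fold change 4.98 ± 0.43 SE, adjusted p = 9.03e-28). PEA2 held 27, 25.6 and 47.4 TPM against 0.843, 1.06 and 0.317 TPM in PEA1, a 47.2-fold rise (log2 fold change 5.56 ± 0.44 SE, adjusted p = 2.68e-35). Both kept their calls under every alternative tried. The summed fibroblast markers were higher in OVCAR4 ResA and lower in PEA2 than in the parent or paired line, and their part in these rises was not tested. OVCAR4 ResB, from the same parent as OVCAR4 ResA, had 3, 3 and 5 counts against 553, 663 and 598 in OVCAR4 ResA. The ratio of summed counts per library total was 165, with a 95% exact interval of 92.1 to 331 for counting error only, and the adjusted p was 8.23e-47. Against OVCAR4, with 23, 9 and 12 counts, OVCAR4 ResB lay lower in all 3 libraries but was not called (adjusted p = 0.109), and the fit without the block gave 0.0130.

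PEO6 held 1.67, 1.06 and 1.82 TPM of IDO1 and PEO1 0.711, 0.490 and 0.197 TPM, a 3.41-fold difference (adjusted p = 0.0224). That call was lost when any 1 replicate was left out, with adjusted p between 0.0937 and 0.349. In the OVCAR3 family IDO1 had 1 to 21 counts per library and was not called. The 95% interval of the log2 fold change ran from -3.21 to 1.0 in OVCAR3 ResA and from -2.25 to 2.47 in OVCAR3 ResB.

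LGALS9 was called in 6 of the 7 pairs, 4 times higher and 2 times lower. In the PEO family it went from 0.572, 0.410 and 0.368 TPM in PEO1 to 8.18, 6.41 and 2.26 TPM in PEO4 and 7.49, 10.2 and 11.1 TPM in PEO6. These were rises of 12.3-fold (log2 fold change 3.63 ± 0.44 SE, adjusted p = 5.89e-15) and 22.4-fold (4.48 ± 0.43 SE, adjusted p = 1.06e-23). PEO1 had 9 to 13 counts per library and PEO4 53 to 186, replicate 3 being the lowest. In the OVCAR4 family it rose from 0.756, 0.375 and 0.243 TPM to 2.39, 3.60 and 4.21 TPM in OVCAR4 ResA and 2.84, 3.43 and 4.63 TPM in OVCAR4 ResB, by 5.49-fold (adjusted p = 0.00729) and 5.91-fold (adjusted p = 0.001). Both OVCAR4 calls rested on 6 to 22 counts in the parent and were lost without replicate 2 (0.315 and 0.108) or replicate 3 (0.654 and 0.341), and both held without replicate 1. For OVCAR4 ResA edgeR did not call it either (0.0673).

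PEA2 went the other way. LGALS9 stood at 0.498, 0.695 and 0.602 TPM there and at 11.5, 5.98 and 5.99 TPM in PEA1, an 11.2-fold fall (log2 fold change -3.48 ± 0.45 SE, adjusted p = 1.9e-13). OVCAR3 ResA held 9.31, 8.13 and 7.23 TPM against 15.0, 12.4 and 12.3 TPM in OVCAR3, 1.72-fold lower (adjusted p = 0.000106). OVCAR3 ResB held the highest level of all lines, 21.5, 19.4 and 26.4 TPM, above every OVCAR3 library, with an adjusted p of 0.319. It was 2.73-fold above OVCAR3 ResA (adjusted p = 0.00106), a call lost without replicate 1 (0.0528) or replicate 2 (0.198). LGALS9B and LGALS9C, near-identical copies, can share reads with LGALS9, and adding their counts ended none of these calls.

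None of the 8 genes passed a test of resistance across the families. A test on counts summed per line, with the family as covariate and the line as the unit, called 0 of the 8 genes, beside 0.286% of all genes. DESeq2 and edgeR each gave 0 at an unadjusted p under 0.05. The closest was IDO1, with a log2 fold change of 1.90 ± 1.04 (SE) and an unadjusted p of 0.0674. A likelihood ratio test of whether the change differed between the 7 pairs called all 8 genes, beside 70.2% of all genes, with an adjusted p of 3.7e-121 for CD47, 3.62e-60 for LGALS9, 1.68e-40 for NT5E and 1.86e-38 for IDO1.

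The interferon and JAK-STAT list held 27 genes. In PEA2, where CD274, PDCD1LG2, NT5E and IDO1 rose, 9 of the 27 genes were lower and 3 higher, and the list median was -0.37 beside -0.05 for all genes tested, of which 47.0% were called. GBP1, an interferon-induced GTPase, fell from 47.9 to 9.27 TPM (adjusted p = 2.1e-13) and NLRC5, the activator of MHC class I genes, from 5.44 to 1.37 TPM (1.03e-12). The chemokine CXCL10 fell by 2.14 on the log2 scale (adjusted p = 4.58e-06), and SOCS3, a feedback inhibitor, rose by 1.25 (3.59e-07). JAK2 was also lower there, with a log2 fold change of -0.88 ± 0.28 (SE, adjusted p = 0.00561).

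In the PEO pairs more of these genes were higher than lower, NLRC5 in PEO4 being among the lower ones (-1.08 ± 0.33 SE, adjusted p = 0.00511). In PEO4, 10 of the 27 genes were higher and 5 lower (list median 0.35 beside 0.01 for all genes, of which 33.3% were called), and in PEO6, 9 of the 26 tested were higher and 2 lower (0.00 beside 0.11, with 41.4% of all genes called). IRF9, a factor of type I interferon signalling, rose by 1.71 on the log2 scale in PEO4 (adjusted p = 1.83e-12) and by 2.42 in PEO6 (4.36e-23), and IRF1 rose by 1.13 (8.16e-09) and 1.08 (2.31e-05). LGALS9 rose with them in both lines, while CD274 was not called and PDCD1LG2 was lower. In OVCAR4 ResA, where IDO1 rose 31.7-fold, 3 of the 25 genes tested were called, a share like the 11.9% of all genes: GBP1 (adjusted p = 0.0107), NLRC5 (0.0180) and IL6 (0.0242), all higher. IL6, a cytokine that signals through STAT3, was higher in 5 of the 7 pairs and lower in 0. The share of all genes that recurred so was not computed, for IL6 or for genes named below.

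**Figure D3:**
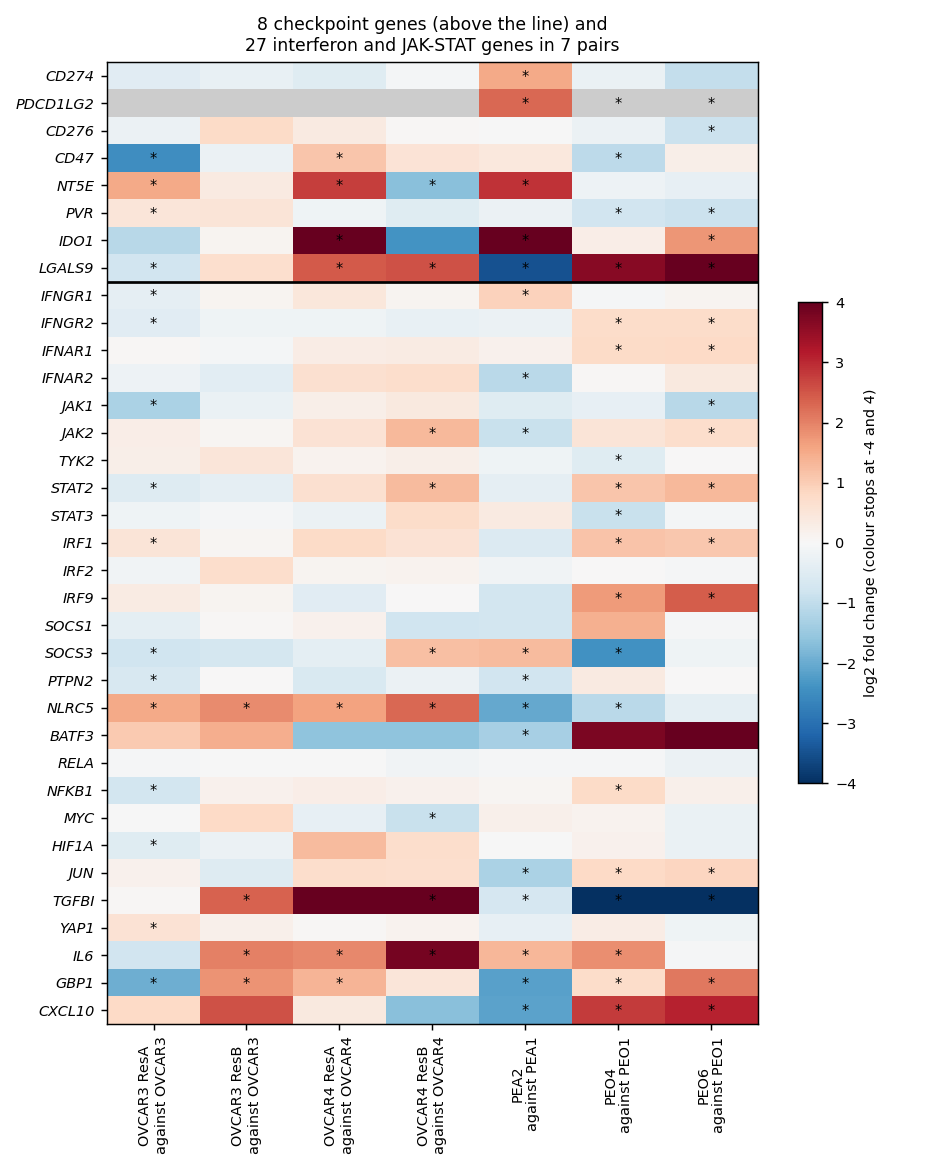
Log2 fold changes in the 7 pairs of the 8 checkpoint genes, above the black line, and of the 27 interferon and JAK-STAT genes. Stars mark an adjusted p under 0.05, and colour stops at -4 and 4. Among the 8 checkpoint genes grey marks pairs in which a line had 3 or fewer counts in every library. The 27 other genes are coloured whatever their counts, wherever an estimate existed. In the PEA2 column CD274, PDCD1LG2, NT5E and IDO1 are red and NLRC5, GBP1 and CXCL10 blue, and in the PEO columns IRF1, IRF9 and LGALS9 are red.

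Of 27 further genes of the adenosine, tryptophan and amino acid routes, 12 were higher and 2 lower in PEA2 among 25 tested. The list median was 1.42 beside -0.05 for all genes, of which 47.0% were called. KYNU, which acts on kynurenine downstream of IDO1, stood at 206 ± 4.17 TPM in PEA2 and at 0.0218 ± 0.0378 TPM in PEA1 (mean ± SD, n = 3). SLC7A5, a carrier of tryptophan and kynurenine, went from 92.6 to 416 TPM (adjusted p = 2.61e-23), and PTGES, a prostaglandin synthase, from 0.615 to 22.3 TPM (2.65e-49). Among adenosine receptors ADORA2B rose by 2.0 on the log2 scale (adjusted p = 5.85e-14) and ADORA1 fell by 2.41 (1.36e-14). ENTPD1 (CD39), which makes the AMP that NT5E uses, stood at 0.0212 TPM in PEA2 and was not called there (adjusted p = 0.0811). In OVCAR4 ResB, where NT5E was lowest, ENTPD1 was at 8.71 ± 5.11 TPM against 0.225 ± 0.109 TPM in OVCAR4 (adjusted p = 2.99e-12). ADA, which breaks adenosine down, was higher in 4 of 7 pairs and lower in 1.

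Among 12 genes that act on the stability or processing of the checkpoint proteins, 4 were higher and 3 lower in PEA2, beside 47.0% of all genes called. The list median was -0.06 beside -0.05 for all genes. CMTM6, which keeps PD-L1 from degradation, rose from 57.5 ± 3.07 to 379 ± 28.7 TPM (adjusted p = 2.51e-38), and STUB1, a ubiquitin ligase, fell from 110 ± 16.0 to 21.8 ± 1.03 TPM (4.68e-21). CMTM6 was not called in either PEO pair (adjusted p = 0.101 and 0.532). The glycosyltransferase B3GNT3 was higher in 5 of 7 pairs and lower in 1.

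Of 34 other checkpoint surface ligands, 27 were tested in PEA2 and 6 were higher and 3 lower. The list median there was 0.0 beside -0.05 for all genes, of which 47.0% were called. In PEO6, 9 were higher and 9 lower of 27 (median -0.03 beside 0.11, with 41.4% of all genes called), and in OVCAR3 ResA 11 higher and 5 lower of 27 (0.53 beside -0.04, with 44.9%). LGALS1, which encodes another galectin, was lower in 5 of 7 pairs and higher in 1. In OVCAR4 ResB it fell by 3.64 on the log2 scale (adjusted p = 1.75e-24), while LGALS9 rose there. CD24, another brake on phagocytosis, was lower in 4 pairs and higher in 2. BTN3A1, a butyrophilin sensed by gamma delta T cells, was higher in 4 of 7 pairs, and those were the 4 pairs in which LGALS9 was higher. Of 14 partner receptors at most 2 reached 1 TPM in a line. These were SIRPA, the CD47 receptor, in every line, and in PEA2 also SIRPG, at 2.58 TPM. SIRPA was called in 6 pairs. It was higher in OVCAR3 ResA, OVCAR3 ResB and OVCAR4 ResB and lower in PEA2, PEO4 and PEO6. In OVCAR4 ResB it stood at 52.6 ± 8.65 TPM against 1.85 ± 0.105 TPM in OVCAR4 (adjusted p = 1.74e-38), and in PEO4 at 6.29 ± 0.986 against 52.7 ± 15.0 TPM in PEO1 (1.52e-50).

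Neighbours of CD274 and PDCD1LG2 on chromosome 9 were called in both directions in PEA2. Of 21 neighbouring genes, whose starts lay between -960 and 1270 kb from that of CD274, 18 were tested in PEA2. Start means here the lower coordinate of a gene whatever its strand, which for a minus-strand gene is its 3′ end. Of these 4 were higher and 2 lower, beside 47.0% of all genes called, with a median of 0.04 beside -0.05 for all genes. The higher ones were PLPP6 (log2 fold change 1.46 ± 0.27 SE, adjusted p = 4.1e-07), INSL4 (6.18 ± 1.76, 0.00152), RLN2 (1.61 ± 0.66, 0.0330) and ERMP1. INSL4 was at 1.51 TPM in PEA2 and 0 in PEA1. The lower ones were SLC1A1 (-0.74 ± 0.31, 0.0412) and JAK2. GLDC passed the test in 6 pairs, rising in 4 and falling in 2. PLGRKT, with its start at -92.6 kb from that of CD274, had a log2 fold change of 0.39 ± 0.29 (SE, adjusted p = 0.258), and RIC1, at 179 kb, one of -0.56 ± 0.26 (0.0601). ERMP1, at 334 kb, was higher in PEA2 (2.03 ± 0.25 SE, adjusted p = 2.1e-15) and lower in PEO6 (-2.05 ± 0.24 SE, adjusted p = 1.31e-15), the direction in which PDCD1LG2 also went in each line. JAK2, at -466 kb, was lower in PEA2 and higher in PEO6 (0.71 ± 0.30 SE, adjusted p = 0.0483), and PLGRKT was higher in PEO6 (1.20 ± 0.31 SE, adjusted p = 0.000441), where PDCD1LG2 was at 0. Copy number was not analysed here.

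**Figure D4:**
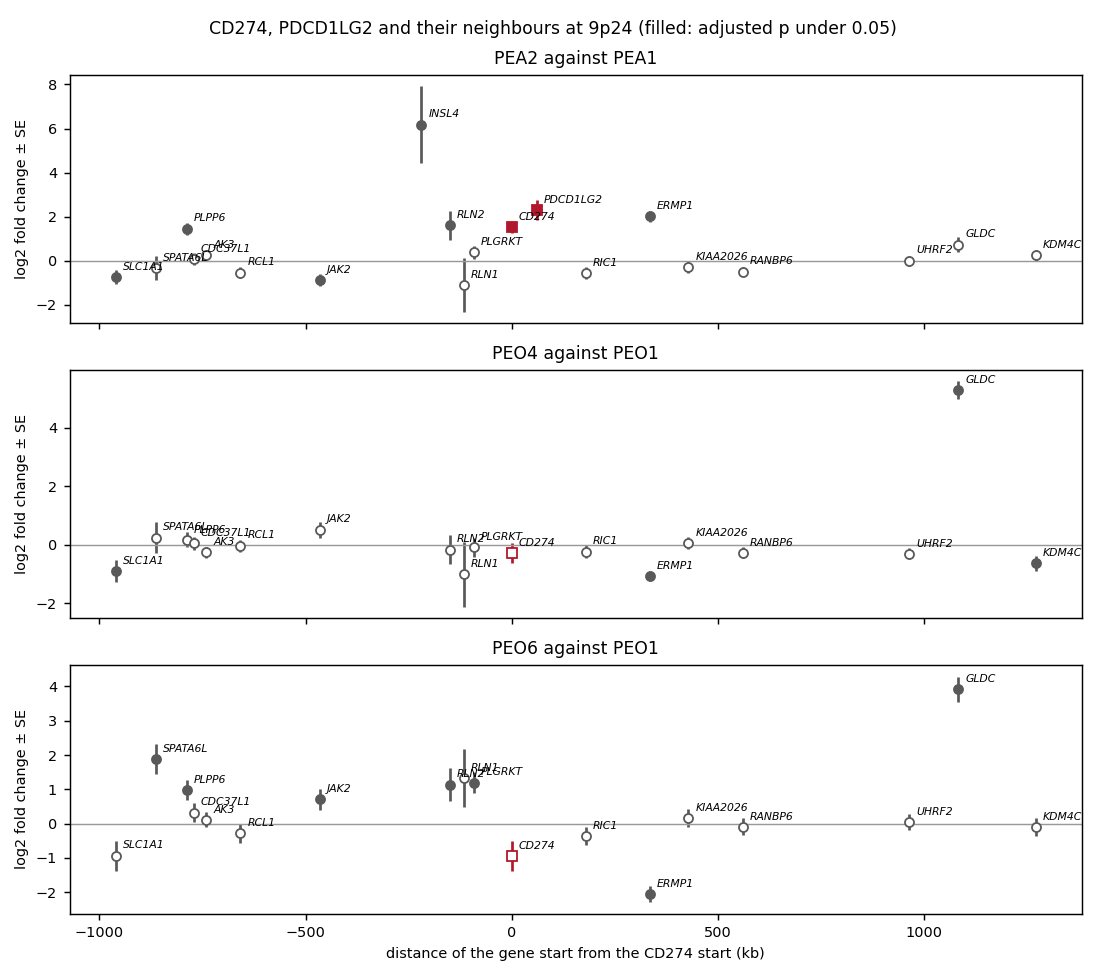
Log2 fold change ± SE of genes by the distance of their start from the CD274 start, in kb, for the PEA2, PEO4 and PEO6 pairs. Start is the lower coordinate of a gene, whatever its strand. Filled points passed an adjusted p of 0.05, and red squares are CD274 and PDCD1LG2, the latter not drawn in the PEO pairs because of its low counts. In the PEA2 panel PLGRKT and RIC1, on either side of the pair, have open points at 0.39 and -0.56. PLPP6, INSL4, RLN2 and ERMP1 have filled points above 0 there, and SLC1A1 and JAK2 below 0.

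The genes most like each member over the 11 line means of log2(TPM + 1) were taken from 13185 genes with at least 5 TPM in a line. The 11 points come from 4 families, so a high correlation can reflect a family, and no p is given. It can also rest largely on PEA2, where CD274, PDCD1LG2, IDO1 and NT5E were highest. The genes closest to PDCD1LG2, LOC101928820, WSCD1 and CSF2, stood at 13.9, 8.26 and 27.4 TPM in PEA2. In any other line they stood at no more than 2.76 TPM. AOX1, TXK, RXFP1 and COL4A4 likewise reached 5 TPM in PEA2 only. For CD274 the closest were AOX1 (r = 0.944), NOB1 (0.927) and CLDN11 (0.927), and for PDCD1LG2 LOC101928820 (0.987), WSCD1 (0.986) and CSF2 (0.981). For CD276 they were ULBP3 (0.902), R3HCC1L (0.875) and ELMSAN1 (0.867), for NT5E KIF18A (0.948), NFXL1 (0.936) and C15orf48 (0.923), and for PVR LARS (0.969), SRPRB (0.968) and FGFR1OP (0.956). For IDO1 they were TXK (0.908), RXFP1 (0.892) and COL4A4 (0.873), and for LGALS9 ZNF117 (0.940), MRPS23 (0.938) and BPTF (0.935). For CD47 the closest was IFT57 (r = 0.960), an intraflagellar transport gene, ahead of NUDT16 (0.952) and TRAK1 (0.936). IFT57 lies on chromosome 3 (108160812 to 108222424), 69.8 kb from CD47. It was lower in OVCAR3 ResA, at 123 ± 21.9 TPM against 334 ± 42.7 TPM in OVCAR3 (log2 fold change -1.59 ± 0.11 SE, adjusted p = 2.23e-44), and in PEO4, at 32.9 ± 4.26 against 65.6 ± 8.42 TPM in PEO1 (-0.96 ± 0.21 SE, adjusted p = 3.68e-05). These were the 2 pairs in which CD47 was lower. In OVCAR4 ResA, where CD47 was higher, IFT57 had a log2 fold change of 0.44 ± 0.30 (SE) and an adjusted p of 0.389.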

How the data were processed

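Libraries were made from poly(A) mRNA with the KAPA mRNA HyperPrep kit. Per the study's methods, reads were converted with BCL Convert, run through nf-core/rnaseq against GRCh38 and summarised by salmon, and the submitters' processing notes name DRAGEN and GRCh38. The authors deposited estimated counts per gene, not normalised, and a second table of TPM, scaled for length and library sum by the authors. Strand use in the counting was not given in the sources used here, so overlapping and antisense genes cannot be told apart.

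Groups and replicates came from sample titles. Counts were rounded and tested in DESeq2 1.42.0 (R 4.3.3) per pair, with line and replicate number as terms, as in the study's methods, with no filter beyond its independent filtering. Alternatives used edgeR 4.0.16 (the quasi-likelihood test) and limma 3.58.1 on log2(TPM + 1) and log2(TPM + 0.1), genes with at least 1 TPM in 3 libraries. The likelihood ratio test and the line-level test were also run in DESeq2. Scripts were tested on simulated data. The members and gene lists were chosen with earlier results of these data known. A gene of the interferon list is not reported here. Genes named besides the 8 were taken, not exhaustively, from a rule: per list and pair, up to 2 higher and 2 lower called genes of largest change whose normalised count averaged 100 or more, and genes called one way in at least 4 pairs. Genes with TPM values used as checks on cell identity (PAX8, EPCAM, KRT7) are markers. FOLR1, WT1, LUM, PTPRC, CD14, SIRPG, PLGRKT, RIC1, PLPP6, INSL4, RLN2 and SLC1A1 were singled out after their values were seen. The share of all genes called one way in at least 4 pairs was not computed, so such recurrence describes the named genes only.

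Same-numbered libraries deviated together, with 3 correlations above 0.1, in 2 of 10 comparisons, OVCAR3 ResA against OVCAR3 (0.816, 0.347 and 0.680) and OVCAR4 ResB against OVCAR4 ResA (0.837, 0.744 and 0.712). No 2 libraries of a line were alike to within sampling noise: chi-square divided by its degrees of freedom was never under 32.6.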

Additional observations from a re-analysis of the deposited data

Results flagged for a closer look

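For each of the 8 genes the difference between the resistant and the sensitive line was itself unequal among the 7 pairs, by the likelihood ratio test of DESeq2 with Benjamini-Hochberg adjustment over all genes, which called 70.2% of them. The adjusted p was 3.7e-121 for CD47, 3.62e-60 for LGALS9, 1.68e-40 for NT5E, 1.86e-38 for IDO1 and 1.29e-09 for PDCD1LG2. It was 0.000111 for CD274, 0.000233 for PVR and 0.00107 for CD276. PDCD1LG2, CD47, NT5E, PVR and LGALS9 were called in both directions. CD47 was called higher in OVCAR4 ResA and lower in OVCAR3 ResA and PEO4. NT5E was called higher in OVCAR3 ResA, OVCAR4 ResA and PEA2 and lower in OVCAR4 ResB, and LGALS9 higher in 4 pairs and lower in 2. PVR was called higher in OVCAR3 ResA, PDCD1LG2 higher in PEA2, and both lower in PEO4 and PEO6. Of 11 alternatives, 7 lost the NT5E fall in OVCAR4 ResB, 5 the CD47 rise in OVCAR4 ResA and 2 the PVR rise in OVCAR3 ResA. The CD274 test no longer passed without replicate 2 (0.0517) or replicate 3 (0.0766), nor the PVR test without replicate 3 (0.0526). Pairs of one family share their sensitive line, and with 1 line per selection a difference between pairs cannot be told apart from a difference between single lines.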

How the results depend on the processing

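Of 886 combinations of gene, comparison and alternative, 808 kept their direction and side of the threshold, 59 lost a call, 19 gained one and 0 reversed. In 45 further ones no adjusted p was given. Of 33 calls in the 10 comparisons, 18 held under every alternative, among them CD47 in OVCAR3 ResA, NT5E in PEA2 and IDO1 in OVCAR4 ResA and PEA2. The number of the 8 genes called moved by more than 1.5 times as follows. In OVCAR4 ResA against OVCAR4 it went from 4 to 2 in edgeR and to 1 in limma with either pseudocount, and to between 2 and 5 when a replicate was left out. In OVCAR4 ResB against OVCAR4 it went from 2 to 1 in edgeR, in limma with either pseudocount and with library totals without mitochondrial rRNA, to 5 with no replicate block and 4 with all 33 libraries, and to between 0 and 3 when a replicate was left out. In PEO6 against PEO1 it went from 5 to 3 in limma with the pseudocount of 0.1 and to between 2 and 4 when a replicate was left out. In OVCAR3 ResB against OVCAR3 ResA it went from 4 to 2 in edgeR and 1 in limma with either pseudocount, and to between 1 and 4 when a replicate was left out. In PEO6 against PEO4 it went from 1 to 2 with no replicate block and 3 with all 33 libraries, and to between 0 and 2 when a replicate was left out. The cause was not tested.

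Leaving out a replicate changed the line-level count of 0 in no case, and 8, 7 and 6 genes differed between pairs without replicate 1, 2 and 3. Without the block the counts in the other 8 comparisons stayed within 1.5 times. The numbers paired the libraries in 2 of 10 comparisons, so elsewhere the block stands for a shared number only, and in the OVCAR4 pairs the correlations were negative, from -0.606 to -0.131. Over all genes, the calls in OVCAR4 ResA went from 1784 to 531 in edgeR, 3462 with no replicate block, 6221 without replicate 1 and 292 without replicate 3, and those in OVCAR4 ResB from 2853 to 1402, 4765, 7241 and 631. With library totals without mitochondrial rRNA the share of higher calls went from 56.2% to 72.2% in OVCAR4 ResA, from 50.9% to 67.1% in OVCAR4 ResB and from 54.2% to 67.1% in PEO6 against PEO4, and in limma on TPM from 49.0% to 63.5% in OVCAR3 ResA. TPM means rose by 1.03 to 1.17 times once that rRNA was left out. Low counts limit PDCD1LG2 outside the PEA lines, IDO1 and CD274 in the OVCAR3 family and LGALS9 in OVCAR4, PEO1 and PEA2. They also limit IDO1 in OVCAR4, OVCAR4 ResB, PEA1, PEO1 and PEO4.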
